A study of Mus musculus with 86 samples.

Results

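Microtubule-associated proteins bind along the microtubule lattice and set its stability, bundling and access for motors. In neurons they differ between compartments: MAP2 is best known from dendrites and the cell body, tau (Mapt) from axons, and doublecortin (Dcx) from migrating and newly extending neurons. Their RNAs have long served as examples of transcripts with a defined place in the cell, with Map2 mRNA in dendrites as a textbook case, and Mapt and Map1b are well studied as targets of RNA-binding proteins. TDP-43, the product of Tardbp, is an RNA-binding protein that prefers UG-rich sequence, controls splicing and RNA stability, and forms aggregates in amyotrophic lateral sclerosis and frontotemporal dementia.

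The RNAs described here were the 9 genes Map1a, Map1b, Map2, Map4, Map6, Map7, Mapt, Dcx and Dclk1, chosen by name among 53664 genes with a transcript in the mouse quantification. All 9 passed the filter on low counts in CAD and in N2A cells, and 8 of the 9 (not Dcx) passed it in the CAD transgene experiment. They were measured in 36 libraries of poly(A) RNA from cell bodies (soma) and neurites of mouse neuronal lines, 3 libraries per group. CAD is a catecholaminergic line of central nervous system origin and N2A is a neuroblastoma line. Cells grew on a porous membrane in serum-free medium, so that RNA taken from the top held somata and RNA from the underside held neurites.

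In the knockout experiments, both CAD and N2A clones carried inactivated endogenous Tardbp alleles and a single-copy HA-tagged TDP-43 transgene resistant to the guide RNA, under a promoter that doxycycline shuts off (TetOff TDP-43). Cells given doxycycline for 48 hours were the knockout and cells of the same clone without it the wild type. Doxycycline therefore went with the knockout in both lines, and its own effect and that of TDP-43 loss cannot be told apart. In the transgene experiment, CAD cells with the endogenous gene intact carried a single-copy, doxycycline-inducible, HA-tagged TDP-43 transgene. It encoded either wild type TDP-43 (WT transgene) or the Q331K mutant found in amyotrophic lateral sclerosis. Per the study, both transgenes were induced with doxycycline before fractionation, for longer than the 48 hours of the knockout experiments. The study reports that induction lowered endogenous TDP-43, so that most TDP-43 came from the transgene. Each line is clonal or carries 1 integrated transgene, and no label says that the 3 libraries of a group came from separate cultures, so p-values measure the spread between these libraries.

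Depth was 25009904 to 32895542 estimated counts per library in CAD, 22726534 to 31911030 in N2A and 9783050 to 15870647 in the transgene experiment, and no 2 libraries held identical values. Tardbp fell in the CAD knockout by 2.52 on the log2 scale in soma and by 1.89 in neurites, and in the N2A knockout by 1.78 and by 1.41. It differed by a log2 fold change of -0.02 in soma and 0.08 in neurites between the Q331K and WT transgenes (FDR 0.99 and 0.83, edgeR's quasi-likelihood test with Benjamini-Hochberg adjustment). All 9 neuronal markers examined reached 1 TPM in soma in each experiment, and 5, 4 and 5 of 6 catecholaminergic markers did so in CAD, N2A and the transgene cells. Summed microglial markers stayed at or under 3.46 TPM in every soma library. In soma, summed astrocyte markers reached at most 4.55 TPM and fibroblast markers 1.57 to 27.7 TPM. The summed nuclear RNAs Malat1, Neat1 and Meg3 stood at 122 to 515 TPM in CAD soma and 25.2 to 48.4 TPM in CAD neurites. They stood at 100.2 to 652.6 against 31.98 to 69.94 TPM in N2A, and 97.89 to 300.4 against 42.85 to 85.15 TPM in the transgene cells. On the TMM scale used below, those lower in control neurites at an FDR of 0.01 were 1 of 3 in CAD (Neat1), 3 of 3 in N2A and 0 of 2 tested in the transgene cells. Of all genes 41.4, 59.2 and 27.5% passed in either direction. In the knockout experiments the 4 most abundant genes took 37.7 to 64.2% of all TPM in CAD neurites against 10.1 to 38.3% in CAD soma, and 27.3 to 70.9% against 7.4 to 21.8% in N2A. Raw TPM values of neurites and somata are therefore not on a common scale, and the ratios below were scaled by TMM, which places the typical gene near 0 (the median over all genes was -0.02 in CAD, -0.03 in N2A and -0.01 in the transgene cells).

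TDP-43 favours repeats of UG, and the 3′ untranslated regions of the members hold such runs at very different densities. The sites below show how far the members differ in such repeats. Each is the 30-base window with the most bases inside the pentamer GTGTG, the same repeat begun 1 base later (TGTGT) or the variant pentamer GTATG (sense strand only, overlapping matches counted), in the 3′ UTR of the member's most expressed transcript. They come from the transcript sequences and annotation of GENCODE M21 on GRCm38, with the matched bases in capitals.

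Mapt (Mapt-204, chr11:104328687-104328716, plus strand): ctgttaactTGTGTGgGTGTGagtggggac
Map1b (Map1b-201, chr13:99421674-99421703, minus strand): gttTGTGTcggtctgcagcTGTGTATGgta
Map1a (Map1a-202, chr2:121308888-121308917, plus strand): tgctatggcctgGTGTGTaatgggttaaac
Map6 (Map6-204, chr7:99318237-99318266, plus strand): tgttaggaGTGTGTGccTGTGTtctgtgcc
Map4 (Map4-201, chr9:110082708-110082737, plus strand): aGTGTGgctgatTGTGTtggtatTGTGTGT
Dclk1 (Dclk1-203, chr3:55470350-55470379, plus strand): cttgcTGTGTGTGTGTttaTGTGTGTctac
Map2 (Map2-201, chr1:66441062-66441091, plus strand): gaaggaatgacTGTGTGTGgagaagtacag
Map7 (Map7-201, chr10:20280220-20280249, plus strand): tggcattttccaGTGTGTttcttcttagta
Dcx (Dcx-201, chrX:143861921-143861950, minus strand): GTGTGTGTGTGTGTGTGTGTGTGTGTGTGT

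In the Dcx window all 30 bases lay in a match, in that of Dclk1-203 18 and in that of Map4-201 17, against 6 in those of Map1a and Map7. In the longest 3′ UTRs of Dclk1 and Map4, which belong to other transcripts, the best windows held 7 and 10.

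Such pentamers are common, and 88.4% of the longest 3′ UTRs of 13718 expressed genes held at least 1 (75.9% held the pentamer GTGTG, 81.1% the shifted repeat TGTGT and 59.5% the variant GTATG). The median density was 4.55 matches per kb with quartiles of 2.56 and 7.11. Map6 (8.58 per kb) and Dcx (8.17 per kb) lay above the upper quartile. Map4 (6.36), Mapt (4.87) and Dclk1 (4.78) lay between the median and the upper quartile. Map1a (4.01), Map2 (3.36), Map7 (3.16) and Map1b (2.75) lay between the lower quartile and the median. Counted without overlaps, Dcx (3.502 per kb) lay near the all-gene median of 3.39 and Mapt (2.82) below it, while Map6 (4.85) stayed above the upper quartile of 4.79, so the place of Dcx and Mapt depends on how repeats are counted. The shorter Dclk1-203, which ends upstream of the kinase exons and has its own 3′ UTR of 4687 bases, held 8.75 per kb. A match is a string of letters and says nothing of whether TDP-43 bound it.

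Levels per transcript length ordered the members similarly in the somata of both lines. In wild type CAD soma Map1b, the large MAP1 family protein of growing axons, was highest at 645 ± 76.6 TPM (mean ± SD, n = 3). Mapt followed at 189 ± 32.3 TPM, Map4, the MAP found in most cell types, at 115 ± 17.1, and Map6, a protein of cold-stable microtubules, at 71.4 ± 10.1. Map1a (45.8 ± 6.18), Dclk1 (40.7 ± 8.55) and Map2 (35.3 ± 5.78 TPM) came next, and the libraries of each overlapped those of its neighbour in the order. Map7, which recruits kinesin-1 to microtubules, stood at 5.53 ± 0.710 TPM and Dcx at 0.150 ± 0.00904 TPM. In wild type N2A soma the same 2 genes led (Map1b 544 ± 23.6 and Mapt 226 ± 3.92 TPM), but Map6 (84.6 ± 1.0) stood above Map4 (69.2 ± 5.54) with no overlap between their libraries. In the WT transgene soma Mapt (98.9 ± 5.39 TPM) and Map4 (98.4 ± 7.04 TPM) overlapped below Map1b (603 ± 47.3 TPM).

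In N2A neurites replicate 1 of both genotypes had a lower TPM than the other libraries for 7 of the 9 members, not for the sparse Map7 and Dcx (Map1b at 63.6 against 113 and 108 TPM in wild type). On the CPM scale the same wild type library was not lower for Map1b (2503 against 2389 and 2398 CPM), but it was the lowest for Map2 and Dclk1.

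Dcx was at the edge of detection. Its estimated counts were 14 to 22 per library in wild type CAD soma and 3 to 4 in the neurites, and 27 to 40 and 12 to 17 in N2A. In the transgene cells 10 of the 12 libraries held 0 counts and the other 2 held 1 count. Its relative Dclk1, by contrast, held at least 1451 estimated counts in every library.

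**Figure D1:**
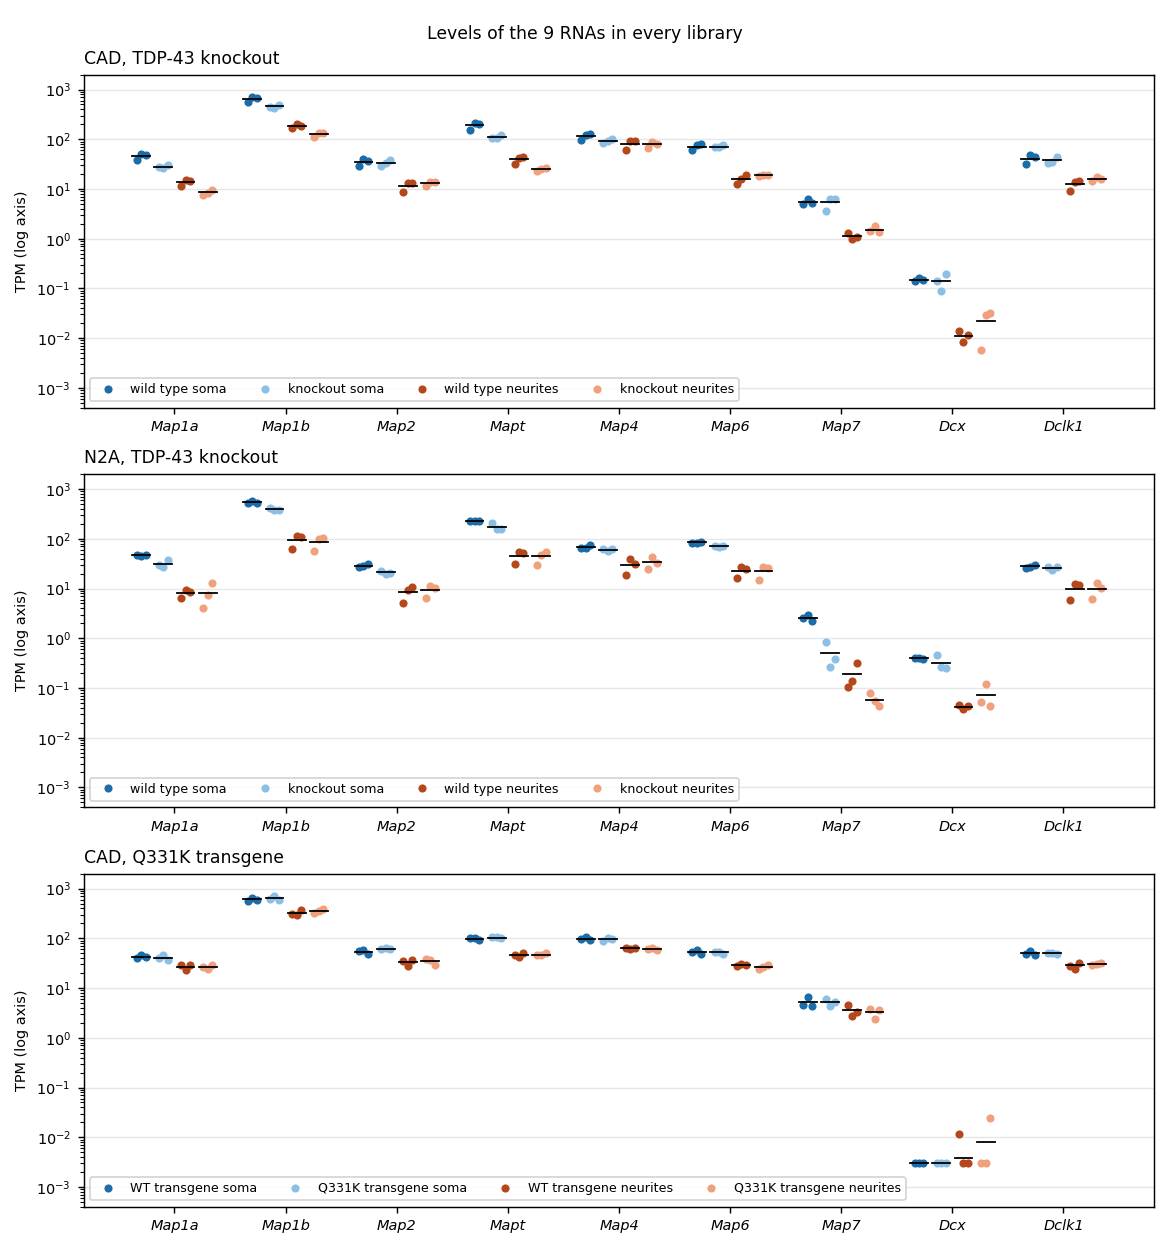
TPM on a log axis of the 9 RNAs in every library of the CAD knockout, N2A knockout and CAD transgene experiments, with points for libraries and black bars for group means (n = 3). Values of 0 are drawn at the lowest level shown, which occurs only for Dcx in the transgene cells. Map1b is highest and Dcx lowest or, in the N2A knockout, level with Map7.

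The neurite over soma ratio (LR, log2) in control cells separated the members. In CAD cells 3 of 9 passed an FDR of 0.01, against 41.4% of 17343 genes tested. Map4 was higher in neurites than the typical gene, at 855, 953 and 742 CPM (TMM-scaled counts relative to library size) in wild type neurites against 345, 348 and 342 CPM in soma. The 2 sets of libraries were far apart, and its LR was 1.30 (SE 0.10, FDR 2.5e-08). Mapt had an LR of -0.38 (SE 0.07, FDR 2.7e-04) and Map6 one of -0.40 (SE 0.06, FDR 3.7e-05), so both were lower in neurites than the typical gene. Map1a (-0.04), Map1b (0.00), Map2 (-0.02), Map7 (0.06) and Dclk1 (0.13) lay within 2 standard errors of 0. Dcx, on few counts, had an LR of -1.62 with an FDR of 0.032. The Mapt call was lost without replicate 2 (FDR 0.014) or replicate 3 (FDR 0.010).

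In N2A cells 6 of 9 passed, against 59.2% of 17912 genes. Map1a, the MAP1 family member of mature neurons, was lower in neurites relative to soma: wild type neurites held 159, 151 and 146 CPM and soma 357, 363 and 325 CPM. Its LR was -1.20 (SE 0.14, FDR 1.9e-06). Map1b had an LR of -0.90 (SE 0.09, FDR 3.8e-07), Mapt -0.48 (SE 0.08, FDR 7.0e-05), Map6 -0.32 (SE 0.07, FDR 0.0011) and Map7 -1.21 (SE 0.32, FDR 0.0036). Map4 was again higher, with an LR of 0.43 (SE 0.10, FDR 0.0015) from 278, 276 and 249 CPM in neurites and 199, 203 and 195 CPM in soma. Map4's N2A call ended under upper-quartile scaling (0.13, FDR 0.23), which moved the median over all genes to -0.33, with at least 10 counts required in every library (0.19, FDR 0.072) and without replicate 1 or 2 (FDR 0.011 and 0.048). The Map6 call ended with no filter on low counts (FDR 0.040) and without replicate 2 or 3 (FDR 0.085 and 0.028), the Map7 call with no filter (FDR 0.011) and without replicate 1 or 2 (FDR 0.020 and 0.084), and the Mapt call without replicate 2 (FDR 0.021). Map2 at -0.29 (FDR 0.018) missed the threshold, and passed it (-0.30, FDR 0.0062) in a fit that blocked soma and neurites of the same genotype and replicate number (the culture block). It also passed with upper-quartile scaling (FDR 3.0e-04), with at least 10 counts (FDR 3.0e-04) and with DESeq2 (FDR 0.0020). Dcx at -1.14 (FDR 0.017) missed it too, and passed with upper-quartile scaling (FDR 0.0058), at least 10 counts (FDR 0.0029), length-scaled counts (FDR 0.0051) and DESeq2 (FDR 0.0094).

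In the WT transgene cells 3 of the 8 tested members passed, against 27.5% of 13940 genes, and all 3 were higher in neurites than the typical gene: Map4 with an LR of 0.46 (SE 0.08, FDR 3.3e-04), Map1a with 0.39 (SE 0.10, FDR 0.0050) and Map2 with 0.30 (SE 0.08, FDR 0.0063). The Map1a call ended with the culture block (FDR 0.013) and the Map1a and Map2 calls ended with length-scaled counts (FDR 0.024 and 0.021) and without replicate 1 (FDR 0.12 and 0.094). The Map2 call also ended without replicate 2 (FDR 0.017) and without replicate 3 (FDR 0.021), so it needed all 3. Mapt had an LR of -0.03, Map6 of 0.03 and Map1b of 0.10. The CAD knockout and CAD transgene experiments were quantified separately, so these values stand side by side with no test between them.

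Every positive LR above is relative to the typical gene. On raw TPM, where the median gene had a log2 ratio of -1.30 in CAD, -1.12 in N2A and -0.88 in the transgene cells, Map4 was lower in neurites in all 3 experiments (log2 ratio of -0.52, -1.26 and -0.64), as were Map1a and Map2 in the transgene cells (-0.66 and -0.71). With each library's median set to 0 instead, Map4 was at 1.07, 0.20 and 0.33 in the 3 experiments. The median gene on that scale was at 0.30, 0.34 and 0.09. In N2A, Map4 therefore lay below the median gene on both TPM scales, unlike on the TMM scale. The negative calls were Mapt and Map6 in CAD and Map1a, Map1b, Map7, Mapt and Map6 in N2A. Each lay below the median gene on each of these scales. A negative sign alone says little on raw TPM, where the median gene was itself negative.

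**Figure D2:**
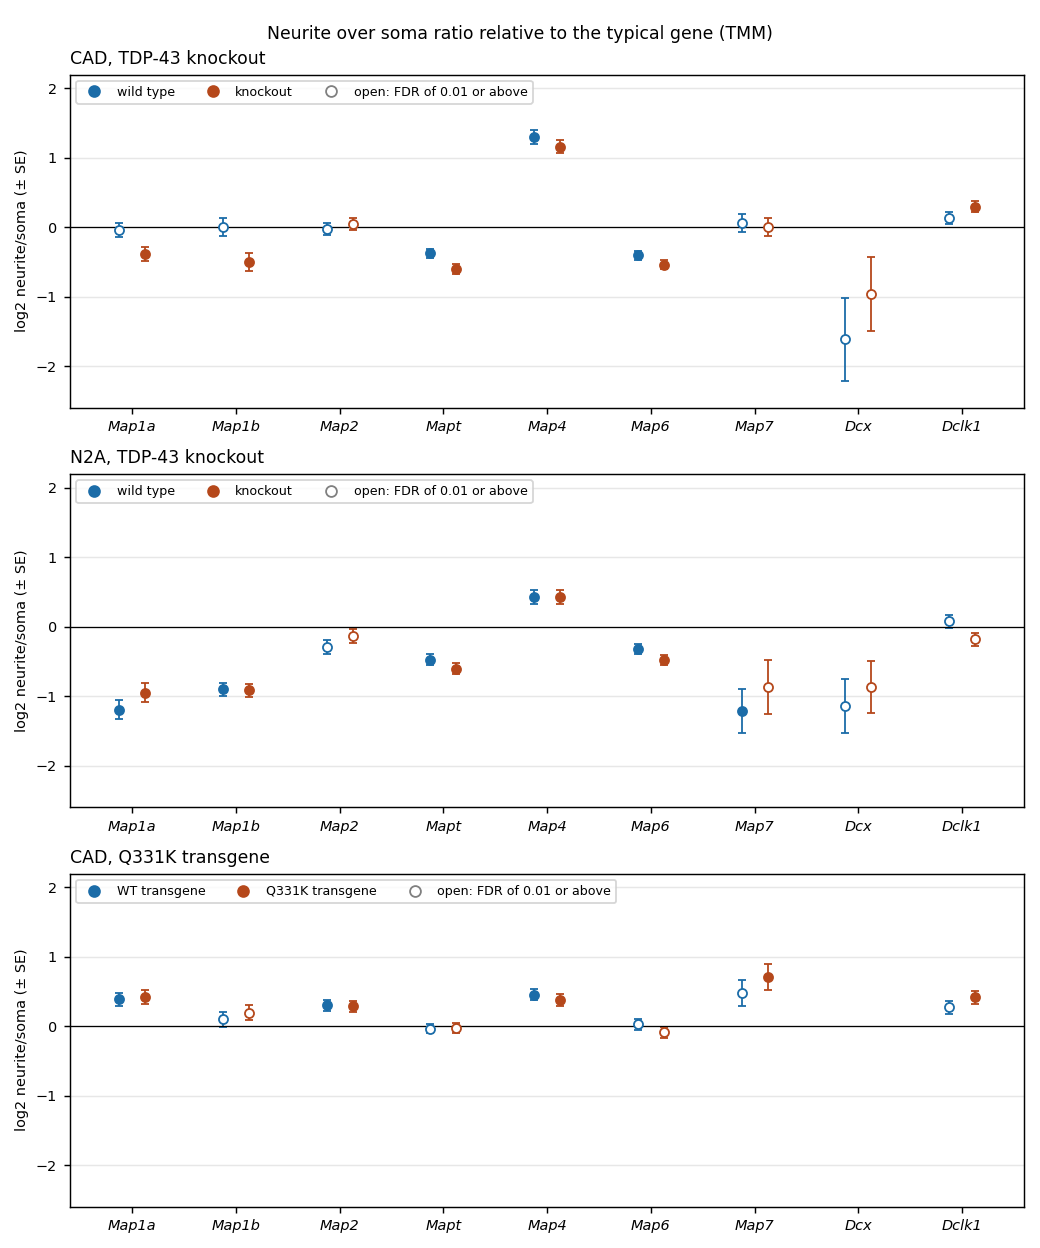
Log2 neurite over soma ratio (LR, TMM-scaled) of the 9 RNAs in control (blue) and changed (brown) genotypes, with bars for the standard error from edgeR (n = 3 libraries per group) and open symbols for an FDR of 0.01 or above. Map4 is the highest of the 9 in wild type CAD and N2A cells, at 1.30 and 0.43, and Map1a and Map1b sit near 0 in wild type CAD cells but at -1.20 and -0.90 in wild type N2A cells.

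Knockout of TDP-43 was followed by lower Mapt and Map1a in both compartments of CAD cells and lower Map1b in their neurites. In CAD soma 3 of 9 members passed the FDR of 0.01, against 22.8% of genes. Mapt, which stabilizes axonal microtubules, held 382, 412 and 396 CPM in wild type soma and 229, 231 and 217 CPM in knockout soma. The 2 groups did not overlap, and the log2 fold change was -0.82 (SE 0.07, FDR 2.1e-07). Map1a fell by 0.52 on the log2 scale in soma (SE 0.10, FDR 0.0010), from 346 to 353 CPM in wild type to 228 to 256 CPM in the knockout. Map6 rose by a log2 fold change of 0.25 (SE 0.06, FDR 0.0037), from 152, 143 and 153 CPM to 185, 178 and 171 CPM. The Map6 call ended without replicate 1 (FDR 0.017) or replicate 2 (FDR 0.15), with no filter on low counts (FDR 0.069) and with length-scaled counts (FDR 0.066). On raw TPM Map6 differed by 0.0022 (FDR 1.0, limma), and with library medians at 0 by 0.16 (FDR 0.047). The Map1a call ended without replicate 2 (-0.57, FDR 0.017). On raw TPM Mapt and Map1a in soma differed by -0.75 and -0.69 with FDRs of 0.018 and 0.024.

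In CAD neurites 3 of 9 passed, against 25.3% of genes, and all were lower in the knockout. Mapt held 320, 321 and 275 CPM in wild type neurites and 142, 150 and 152 CPM in knockout neurites, a log2 fold change of -1.04 (SE 0.07, FDR 1.6e-08). Map1a held 363, 367 and 287 CPM against 157, 191 and 211 CPM, a log2 fold change of -0.86 (SE 0.11, FDR 8.7e-06). Map1b held 6562, 5768 and 4213 CPM against 2862, 3340 and 3358 CPM, a log2 fold change of -0.79 (SE 0.13, FDR 1.5e-04). For each of the 3 genes every wild type library stood above every knockout library. The third wild type neurite library was the lowest of its group for all 3 genes. Without replicate 1 the Map1b value was -0.57 (FDR 0.011). On raw TPM Mapt, Map1a and Map1b differed by -0.65, -0.65 and -0.55 in neurites and missed the threshold (FDR 0.054, 0.045 and 0.11, limma).

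These are bulk libraries, in which fewer cells expressing a gene and less RNA per cell cannot be told apart. Map1b in CAD soma stood at 5708, 5639 and 5200 CPM in wild type and 4740, 4565 and 4190 CPM in the knockout, and its log2 fold change of -0.29 had an FDR of 0.094. The members without a call in either CAD compartment were Map2, Map4, Map7, Dclk1 and Dcx. Map2 differed by -0.01 in soma and 0.06 in neurites (SE 0.09 in each). Map4 differed by -0.14 in soma and -0.27 in neurites (FDR 0.33 and 0.034), and passed in neurites with DESeq2 (FDR 0.0052).

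**Figure D3:**
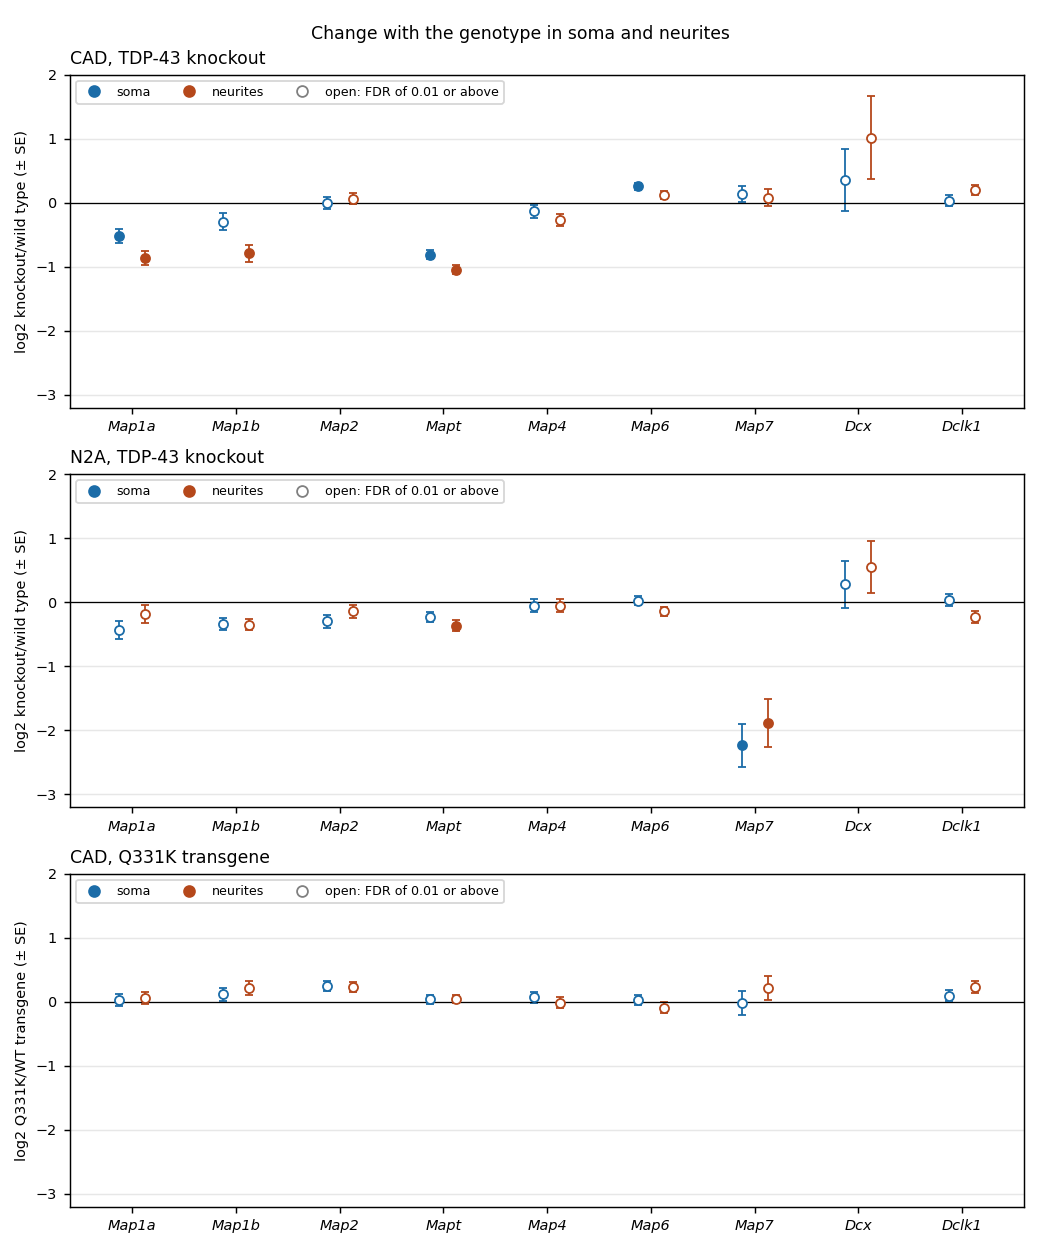
Log2 fold change of the 9 RNAs between genotypes (knockout over wild type in CAD and N2A, Q331K over WT transgene in CAD) in soma (blue) and neurites (brown), with standard errors from edgeR (n = 3 libraries per group) and open symbols for an FDR of 0.01 or above. In CAD, Mapt lies at -0.82 in soma and -1.04 in neurites, while every symbol of the transgene experiment is open.

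In N2A cells the share of TPM from mitochondrial genes moved with the genotype: it was 14.5 to 19.2% in knockout and 7.75 to 13.2% in wild type soma, which did not overlap, and 6.52 to 19.8% against 2.37 to 7.66% in neurites. Its part in the values below was not tested. In soma 1 of 9 members passed, against 16.1% of genes, and it was Map7. Its estimated counts were 77, 73 and 59 in wild type soma and 19, 11 and 17 in knockout soma, which do not overlap but are small numbers. The log2 fold change was -2.24 (SE 0.34, FDR 2.3e-04), with an FDR of 0.035 without replicate 2. In neurites 2 of 9 passed, against 11.6% of genes: Map7, with 24, 24 and 38 estimated counts against 8, 8 and 6 (log2 fold change -1.89, SE 0.38, FDR 0.0022), and Mapt. Mapt held 318, 311 and 315 CPM in wild type neurites and 256, 233 and 244 CPM in knockout neurites, a log2 fold change of -0.36 (SE 0.08, FDR 0.0039). Both neurite calls ended when any 1 replicate was left out (Mapt FDR 0.014, 0.26 and 0.064, Map7 FDR 0.010, 0.042 and 0.066) and with length-scaled counts (FDR 0.11 and 0.030). The Mapt call also ended with no filter (FDR 0.014) and with upper-quartile scaling (FDR 0.011), and neither gene passed on raw TPM.

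Mapt in N2A soma was 440, 456 and 416 CPM in wild type and 400, 378 and 337 CPM in the knockout, a log2 fold change of -0.24 with an FDR of 0.035. Map1b was near the threshold in both N2A compartments. It held 4477, 4924 and 4235 CPM in wild type soma and 3567, 3716 and 3512 CPM in knockout soma (log2 fold change -0.34, FDR 0.011), and 2503, 2389 and 2398 CPM against 1963, 1851 and 1909 CPM in neurites (-0.35, FDR 0.012). No library of one genotype reached those of the other, and with the replicate number as a block both passed (FDR 0.0050 in soma and in neurites), as they did with DESeq2 (FDR 1.5e-05 and 2.6e-07). Map1a in N2A soma stood at 357, 363 and 325 CPM against 224, 255 and 295 CPM, a log2 fold change of -0.43 with an FDR of 0.029. It passed with upper-quartile scaling (FDR 0.0070), no filter (FDR 0.0016), at least 10 counts (FDR 0.0098) and without replicate 3 (FDR 0.0060). Map4, Map6 and Dclk1 differed by -0.05, 0.02 and 0.03 in N2A soma.

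**Figure D4:**
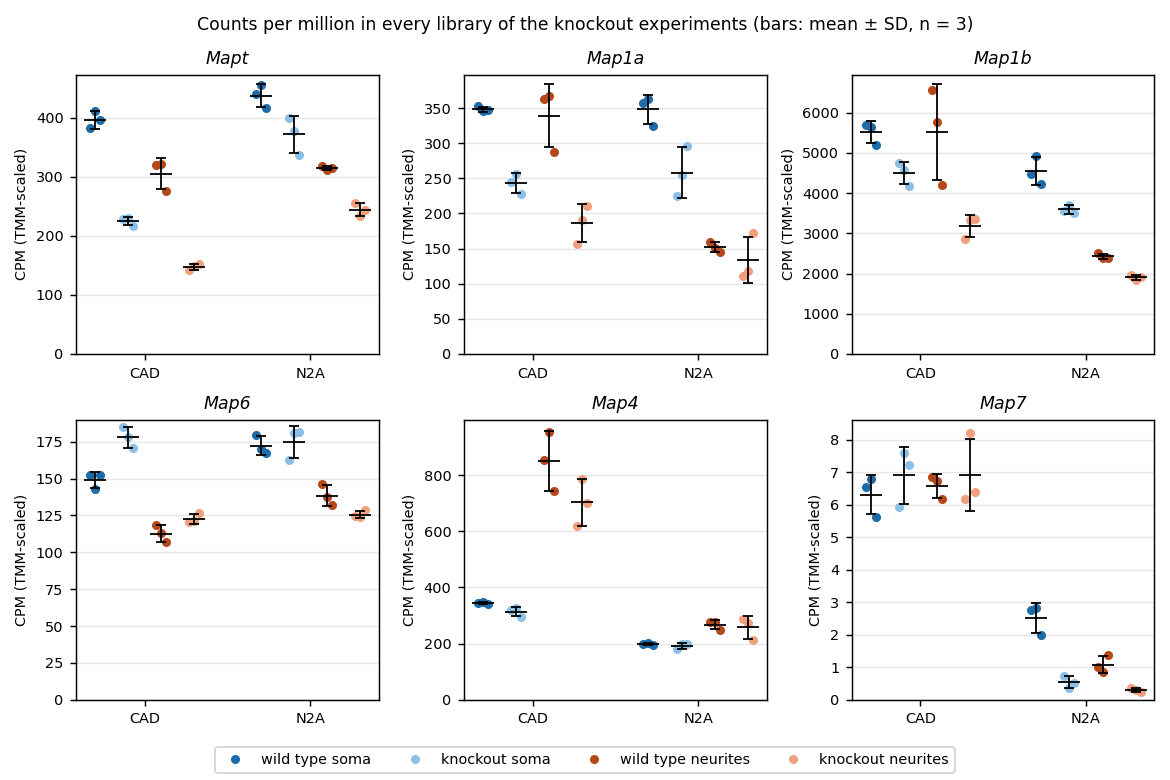
TMM-scaled CPM of Mapt, Map1a, Map1b, Map6, Map4 and Map7 in every library of the CAD and N2A knockout experiments, with points for libraries and black bars for the mean ± SD (n = 3). Mapt drops from 382 to 412 CPM to 217 to 231 CPM in CAD soma, and Map7 in N2A lies under 3 CPM in all libraries.

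The change of the LR itself with the knockout was tested as the interaction of genotype and compartment. No member passed in CAD (0 of 9, against 0.432% of genes) or in N2A (0 of 9, against 0.1%) with edgeR. DESeq2 called 0 of 8 tested members in CAD and 0 of 7 in N2A, against 223 of 12296 and 1909 of 8188 genes. At an unadjusted p under 0.05 there were 3 in CAD and 0 in N2A with edgeR, against 1824 of 17343 and 5580 of 17912 genes. The 3 in CAD were the genes that were lower in knockout neurites: Map1b with an LR change of -0.50 (SE 0.18, FDR 0.31), Map1a with -0.34 (SE 0.15, FDR 0.43) and Mapt with -0.23 (SE 0.10, FDR 0.43). Among the others, the LR change lay between -0.14 and 0.17 in CAD except for Dcx (0.66, SE 0.80). In knockout CAD cells the LR itself was -0.50 for Map1b, -0.38 for Map1a, -0.61 for Mapt and 1.16 for Map4. In N2A the LR change was -0.01 for Map1b, 0.24 for Map1a and -0.13 for Mapt. On simulated counts with CAD depth and spread, 80% of genes given an LR change of 1 on the log2 scale were recovered. That size is larger than any LR change of a member given here, and smaller ones were not simulated. Genes with as few counts as Dcx were not among those changed. The recovery therefore does not show whether changes of the sizes seen would be found.

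No difference between the Q331K and WT transgenes was detectable for these RNAs at this depth. Between the Q331K and WT transgenes 0 of 8 members passed in soma, neurites or the LR change with edgeR, where 0% of genes passed in each. DESeq2 called 0 members too, and of all genes 14 of 3940 in neurites and 0 in soma and for the LR change. At an unadjusted p under 0.05 there were 1, 2 and 0 members, against 995, 1372 and 605 of 13940 genes. The member in soma was Map2, at 99.3, 101 and 93.6 CPM with the WT transgene and 121, 109 and 119 CPM with Q331K, a log2 fold change of 0.24 (SE 0.08, FDR 0.47). Map2 in neurites (0.23, FDR 0.37) and Dclk1 in neurites (0.24, FDR 0.42) were the other 2. Mapt differed by 0.04 in soma and 0.05 in neurites (SE 0.07 in each).

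The 2 lines were compared within 1 fit over their 24 libraries. In the LR of wild type cells 4 of 9 members differed between N2A and CAD, against 18.4% of 19700 genes, all lower in N2A: Map7 by a log2 difference of -1.26 (SE 0.27, FDR 0.0013), Map1a by -1.15 (SE 0.19, FDR 1.1e-04), Map1b by -0.90 (SE 0.16, FDR 2.1e-04) and Map4 by -0.87 (SE 0.14, FDR 1.5e-04). Without replicate 2 all 4 lost their call (FDR 0.037 to 0.068), and 167 of 20001 genes passed, against 3623 of 19700 with all libraries. For the knockout effect in soma 2 of 9 differed, against 10.5% of genes: Mapt, whose log2 fold change was less negative in N2A by 0.66 (SE 0.10, FDR 3.1e-05), and Map7, with -2.30 (SE 0.29, FDR 4.7e-06). For the knockout effect in neurites 3 of 9 differed, against 9.18% of genes: Mapt by 0.73 (SE 0.10, FDR 6.4e-06), Map1a by 0.73 (SE 0.19, FDR 0.0076) and Map7 by -1.91 (SE 0.34, FDR 3.0e-04). Without replicate 2 none of these neurite differences passed (FDR 0.011 for Mapt, 0.14 for Map1a and 0.012 for Map7), nor did Mapt in soma (FDR 0.025). Over all genes that fit called 430 in neurites and 240 in soma, against 1808 and 2070 with all libraries. Without replicate 1 the LR of Map7 (FDR 0.022) and the neurite effect of Map1a (FDR 0.020) lost their calls, as did the neurite effect of Map7 without replicate 3 (FDR 0.027). With length-scaled counts Mapt in soma (FDR 0.014) and Map1a and Map7 in neurites (FDR 0.054 and 0.021) did not pass. The change of the LR with the knockout differed between lines for 0 of 9 members with edgeR, against 0.203% of genes. At an unadjusted p under 0.05 there were 3, against 3649 of 19700 genes. DESeq2 called 0 of 7 tested, against 330 of 9005 genes. Tardbp RNA fell further in CAD than in N2A by a log2 difference of 0.82 in soma and 0.53 in neurites. These libraries do not measure TDP-43 protein, so they do not show whether its depletion differed between the lines. The part of either in these differences was not tested.

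Each member is transcribed into several annotated forms, and their shares of the gene's TPM were followed per library. Map1b-201 carried 94.8 to 99.5% of Map1b in the 12 groups. Map1a-202 carried 68.3 to 87.7% of Map1a. Mapt-204, a form with 10 exons and the full 3′ UTR, was the leading Mapt form in every group with 35.4 to 51.9%. Map4-201 and Map4-205, each with 19 exons, together made up most of Map4. Salmon divides reads among transcripts that share exons, so shares of forms that differ by little sequence carry an error that the spread between libraries does not show.

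In the CAD knockout no Mapt form passed diffSpliceDGE, and 1, Mapt-201, passed limma. The incomplete Mapt-211, which is annotated over the first part of the gene and ends before its last exons, took 2.97, 1.95 and 1.40% of Mapt in wild type soma and 9.77, 10.7 and 9.66% in knockout soma. In neurites it took 1.74, 0.535 and 1.51% against 4.39, 10.8 and 13.3%. The groups did not overlap in either compartment, but the log2 differences of 2.50 in soma and 3.06 in neurites missed the threshold, with FDRs of 0.11 and 0.017 with edgeR's diffSpliceDGE and 0.037 and 0.011 with limma. Mapt-203, a form with 13 exons, stood at 20.1 ± 0.79% in wild type and 13.5 ± 0.12% in knockout soma (FDR 1 with diffSpliceDGE and 0.61 with limma). Mapt-201, a 12-exon form named after its values were seen, stood at 1.85 ± 0.08% against 5.17 ± 0.13% in soma and at 1.85 ± 0.43% against 5.48 ± 1.0% in neurites. With limma on log ratios, a test added after the data were seen, Mapt-201 rose against the rest of Mapt by 1.75 in soma (FDR 0.0034) and 1.76 in neurites (FDR 0.0020). With diffSpliceDGE the FDR was 0.31 and 0.20. In N2A, Mapt-211 stood at 0.0407 to 1.12% in all groups.

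Dclk1, the doublecortin-like kinase, differed by a log2 fold change of 0.03 in CAD soma (FDR 0.84). Its form Dclk1-203 has 7 exons and ends upstream of the exons that encode the kinase. It took 51.1, 49.5 and 49.9% of Dclk1 in wild type soma and 31.0, 37.7 and 35.99% in knockout soma, and 48.4, 46.9 and 47.8% against 31.3, 28.4 and 33.2% in neurites. Neither pair of groups overlapped. The log2 difference against the rest of the gene was -1.09 in neurites (FDR 0.0025) and -0.92 in soma (FDR 0.010, just above the threshold) with limma, and -0.68 and -0.50 (FDR 0.72 and 1) with diffSpliceDGE. In N2A Dclk1-203 held 37.2 ± 5.6% in wild type and 43.5 ± 4.8% in knockout soma, which overlapped.

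Map2-204, a form with a coding sequence of 5484 nt, against 1401 nt in the leading short form Map2-201, differed in share between the compartments. It took 7.78, 7.98 and 6.79% of Map2 in wild type CAD soma and 3.55, 3.37 and 3.42% in the neurites. In N2A it took 15.7 ± 1.9% in soma and 8.28 ± 0.82% in neurites. With limma the difference against the rest of Map2 was -1.11 in CAD (FDR 0.0097) and -1.14 in N2A (FDR 9.6e-04), and with diffSpliceDGE -0.97 and -0.86 (FDR 0.77 and 0.60). In CAD knockout neurites its share was 1.38 ± 0.21%, lower than in wild type neurites by 1.51 on the log2 scale (limma, FDR 0.0044). In the WT transgene cells it was 9.44 ± 1.2% in soma and 7.39 ± 1.8% in neurites. Map6-207, which spans 4 exons, was higher in neurites than in soma in wild type CAD cells, 28.2 ± 6.0% against 13.1 ± 0.94% (log2 difference 1.27, FDR 0.0091 with limma and 0.25 with diffSpliceDGE).

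**Figure D5:**
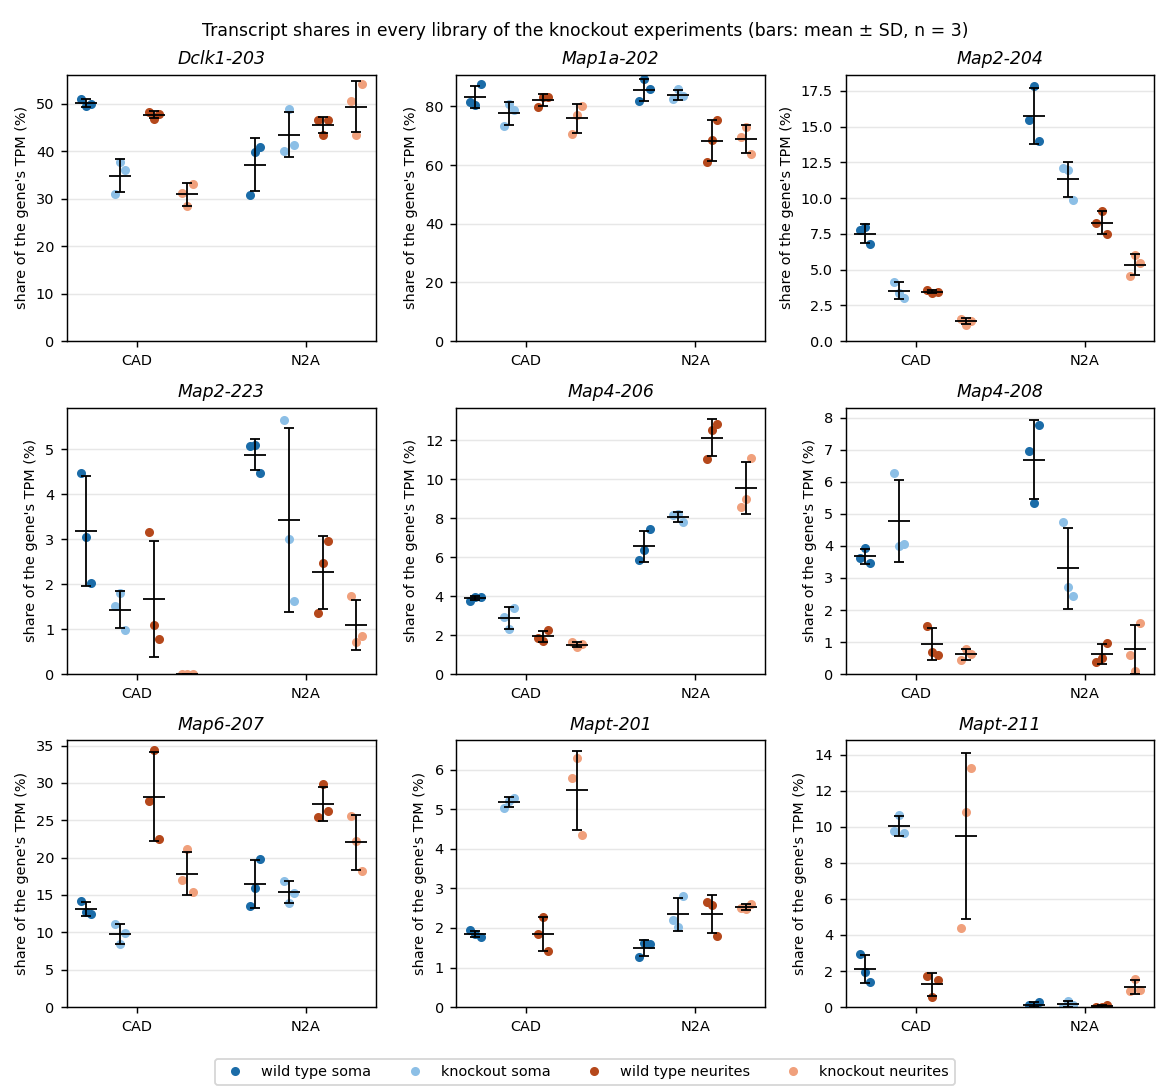
Share of the gene's TPM (%) of the 9 member transcripts with the lowest p in any CAD comparison (limma), in every library of the CAD and N2A knockout experiments, with points for libraries and black bars for the mean ± SD (n = 3). In CAD knockout somata Mapt-211 and Mapt-201 sit higher and Dclk1-203 and Map2-204 lower than in every wild type CAD soma library.

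Over all member transcripts diffSpliceDGE called few. In the neurite over soma comparison of control cells it called 1 of 68 in CAD (against 0.763% of 41801 transcripts), 2 of 67 in N2A (against 4.24% of 41615) and 0 of 52 in the transgene cells (against 0.226% of 29230). Those were Map4-204 in CAD and Map4-214 and Map6-206 in N2A, and Map4-204 and Map4-214 held at most 1.03% of the gene in any group. Between genotypes it called 0 of 68 in CAD soma (against 0.517%), 0 of 68 in CAD neurites (against 0.983%), 0 of 67 in N2A soma (against 0.322%) and 1 of 67 in N2A neurites (Map4-203, against 0.401%). Between the transgenes it called 0 of 52 in soma (against 0.065%) and 0 of 52 in neurites (against 0.154%). At an unadjusted p under 0.05 there were 5, 14, 4 and 5 in the 4 knockout comparisons and 2 and 3 in those of the transgenes. Over all transcripts there were 1924 and 3265 of 41801 in CAD, 1905 and 2435 of 41615 in N2A, and 922 and 1549 of 29230 between the transgenes. Limma on log ratios called 4 of 68 in the CAD neurite over soma comparison (against 5.6%), 7 of 67 in N2A (against 22.1%), 1 in CAD soma (against 0.799%), 4 in CAD neurites (against 1.61%) and 0 in N2A soma and neurites (against 0.216% and 0.334%). Power was low: on simulated counts of CAD soma a share changed by 2 on the log2 scale was recovered in 32% of cases with diffSpliceDGE and 53% with limma. There diffSpliceDGE also called 41 of 37447 unchanged transcripts, beside 1 and 32 recovered of 100 each at changes of 1 and 2, and limma called 0 unchanged ones. The diffSpliceDGE calls named above can therefore include false ones.

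The partners of these proteins were taken from 5 lists of 79 other microtubule genes. They are described by counts of calls, to be read against the share of all genes called. In the LR of control cells 12 of 12 tested tubulins, the subunits of the microtubule, were higher in neurites than the typical gene in CAD, 11 of 11 in N2A and 5 of 12 in the transgene cells, where 41.4, 59.2 and 27.5% of all genes passed in either direction. On raw TPM none was higher and 12, 1 and 10 were lower. In the CAD knockout, where 22.8% of genes passed in soma and 25.3% in neurites, 1 tubulin rose and 5 fell in soma and 1 rose and 7 fell in neurites. Tuba1a, the main neuronal alpha-tubulin, fell by 0.39 on the log2 scale in soma and by 0.47 in neurites, and Tuba4a was the one that rose (0.38 and 0.58). In N2A soma 4 tubulins rose and none fell, and in N2A neurites 1 fell (against 16.1 and 11.6% of genes). Of 21 other microtubule-binding proteins 4 rose and 3 fell in CAD soma and 2 rose and 6 fell in neurites. Of 12 plus-end tracking proteins 3 rose and 1 fell in soma and 2 rose and 3 fell in neurites. Of 20 severing and tubulin-modifying enzymes 6 rose and 4 fell in CAD soma and 5 rose and 8 fell in neurites. Fign, which encodes the severing protein fidgetin, fell by 1.10 in soma and by 1.19 in neurites, and its relative Fignl1 rose by 1.12 and 0.99. Of 11 kinases of tau and other MAPs 3 rose and none fell in soma, and 2 fell in neurites. In N2A soma the other binding proteins, plus-end trackers, enzymes and kinases showed 1, 1, 5 and 3 rises and no fall. In N2A neurites 1, 2, 3 and 1 rose and 3, 1, 1 and 2 fell. No listed gene passed for the LR change in either line or for the Q331K transgene with edgeR. The median LR change of the 5 lists lay between -0.18 and 0.01 in CAD and between -0.38 and -0.11 in N2A. Over all genes it was -0.01 in each line.

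Across the 36 libraries the members most alike in level (Pearson r of log2 CPM) were Map1a and Map1b, with r = 0.94. Each was also close to Akap13 (r = 0.91 and 0.97), whereas the r of Map1b with Map6 was -0.04. Map6 was most like Celf3 (r = 0.97) and Ttbk1 (r = 0.95), and Mapt was most like Tmtc1 and Fndc3b (r = 0.94 for each). These values describe libraries that share lines, compartments and experiments, and the separate quantification of the 3 experiments enters them.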

How the data were processed

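RNA of somata and neurites, from CAD and from N2A cells, was analysed from the deposited quantification of each of 36 mouse libraries (12 per experiment). The authors trimmed reads with cutadapt and quantified transcripts with Salmon, whose versions are not given in the sources used here. Per the file headers, the deposited values are estimated counts of reads and TPM per transcript. The genome build of the study is mm10. Human libraries were not used here, and a marker list of another cell type is not reported here. Whether Salmon was run with strand is not given in the sources used here, so reads of a member and an overlapping antisense gene cannot be told apart.

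Gene sums of the estimated counts, by the GENCODE M21 annotation, were rounded. Between 0.074 and 0.129% of counts had no gene in it and were left out. Each experiment was fitted with edgeR 4.0.16 (R 4.3.3) over its 4 groups of 3 libraries: TMM scaling, filterByExpr, the quasi-likelihood test and Benjamini-Hochberg adjustment over all genes tested, with a threshold of FDR 0.01. LR is the log2 neurite over soma ratio of that fit. CAD and N2A were compared in a joint fit. With 3 libraries against 3, a permutation test of a single gene could not go below p = 0.1, so none is given. Transcript shares are shares of the gene's TPM. Their tests were edgeR's diffSpliceDGE on counts and, added after the data were seen, limma 3.58.1 on the log2 ratio of a transcript to the rest of its gene (pseudocount of 0.5). Raw TPM was tested with limma on log2(TPM + 0.5), also added after the data were seen. A fold change on that scale understates the change of low genes. DESeq2 1.42.0 was an alternative.

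The members, gene lists and tests were chosen with earlier results of these data known. All 9 members are named, as are their transcripts with a mean of at least 10% of the gene's TPM in a group and those that passed a usage test. For the listed genes at most the 2 largest changes each way were to be named, and Tuba1a and Fignl1 are given beside Tuba4a and Fign for comparison after their values were seen. Same-numbered soma and neurite libraries of a genotype deviated from their group means together in N2A and the transgene cells in all 6 pairs. There r across genes was 0.11 to 0.50 and 0.04 to 0.26. In CAD r was -0.10 to 0.43. The median r was 0.34, 0.35 and 0.12 in CAD, N2A and the transgene cells. For same-numbered libraries of different genotypes it was 0.21, 0.30 and 0.11. For soma and neurite libraries of a genotype with different numbers it was -0.18, -0.15 and -0.06. Libraries of the same number thus deviated together across genotypes too, and the main fits hold no term for the number. The numbers therefore do not single out pairs of soma and neurites, and no label says that they mark cultures.

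Fits were tested on simulated data drawn from the real means and library sizes. For the LR change, 80% of 100 genes changed by 1 on the log2 scale were recovered in CAD, 78% in N2A and 71% in the transgene cells. For a share changed by 2 in soma, diffSpliceDGE recovered 32%, 30% and 8% in CAD, N2A and the transgene cells, with 41, 32 and 10 unchanged transcripts called, and limma 53%, 29% and 4%, with 0, 0 and 1. Motif density was counted in the longest annotated 3′ UTR of each gene. Alternatives were upper-quartile scaling, no filter, length-scaled counts, a minimum of 10 counts per library, an FDR of 0.05, a replicate block, leaving out each replicate and 2 TPM scalings.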

Additional observations from a re-analysis of the deposited data

Results flagged for a closer look

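The differences between the lines were singled out because the test of N2A minus CAD itself passed in edgeR's joint fit. In wild type cells the neurite over soma ratio was lower in N2A for Map7 (-1.26), Map1a (-1.15), Map1b (-0.90) and Map4 (-0.87 on the log2 scale). The knockout effect in soma differed by 0.66 for Mapt and by -2.30 for Map7. The knockout effect in neurites differed by 0.73 for Mapt, by 0.73 for Map1a and by -1.91 for Map7. Leaving out replicate 2 ended 8 of these 9 calls, and Map7 in soma was the one that passed without it. Over all genes the calls went from 3623 to 167 for LR, from 2070 to 240 in soma and from 1808 to 430 in neurites. Map7 rests on 6 to 77 estimated counts per N2A library.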

How the results depend on the processing

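On raw TPM the sign turned against the TMM-scaled LR for Map7 (-1.89), Dclk1 (-1.66) and Map4 (-0.52) in CAD, Dclk1 (-1.50) and Map4 (-1.26) in N2A, and Map2 (-0.71), Map1a (-0.66), Dclk1 (-0.82), Map4 (-0.64), Map1b (-0.90) and Map6 (-0.84) in the transgene cells. With library medians set to 0 it turned for Dcx in CAD (1.25). Dcx stood at 0.150 TPM in wild type CAD soma and 0.0113 TPM in neurites, far under the pseudocount of 0.5. Only genes that either fit called are listed here. The TPM scale holds the shift of the typical gene given in the report. Raw TPM called 8 members for LR in CAD and 7 in the transgene cells, against 15068 of 17343 and 10347 of 13940 genes. It called 0 in CAD soma and CAD neurites, against 792 and 466 of 17343 genes, and 0 in N2A neurites, against 54 of 17912. The numbers of genes called are given in brackets below. In N2A soma, where 1 member was called, an FDR of 0.05 called 5 (5255 of 17912 genes) and upper-quartile scaling 3 (2927 of 17912). No filter (3771 of 34673), at least 10 counts in every library (3186 of 13310) and DESeq2 (4007 of 14780) called 2 each. The replicate block (3363 of 17912) and TPM with medians set to 0 (1798 of 17912) also called 2 each. In N2A neurites, in place of 2, upper-quartile scaling (2395 of 17912 genes) and no filter (2491 of 34673) called 1 each. At least 10 counts (2487 of 13310) and TPM with medians set to 0 (1093 of 17912) called 1 each too, and length-scaled counts 0 (1429 of 17912). Length-scaled counts and TPM with medians set to 0 called 1 in place of 3 for LR in the transgene cells (3214 and 3110 of 13940 genes). For the knockout effect of N2A minus CAD, length-scaled counts called 1 in soma and 1 in neurites (1385 and 1255 of 19700 genes). The cause was not tested.

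Leaving out 1 replicate gave 2 to 3 calls for LR, 1 to 3 in soma and 2 to 3 in neurites in CAD, 2 to 5, 0 to 2 and 0 to 0 in N2A, 1 to 2 for LR in the transgene cells, and 0 to 4, 1 to 2 and 0 to 3 for N2A minus CAD. The LR change gave 0 calls in each. Over all genes these fits called 4256 to 6097, 1830 to 3062 and 2084 to 3295 in CAD, and 6850 to 9371, 511 to 2520 and 437 to 1292 in N2A. They called 1750 to 3731 for LR in the transgene cells, and 167 to 2443, 240 to 1705 and 430 to 1168 for N2A minus CAD. For transcript usage, leaving out 1 replicate gave 0 to 1 and 0 to 2 calls for LR in CAD and N2A, and 0 to 1 in neurites of each line. Over all transcripts it gave 130 to 204 and 297 to 695 for LR, and 214 to 291 and 85 to 116 in neurites.

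For transcript usage in CAD, an FDR of 0.05 called 2 for LR and 2 in neurites (742 and 795 of 41801 transcripts). Limma called 4, 1 and 4 for LR, soma and neurites (2341, 334 and 675 of 41801). At least 10 counts in every library, which tests fewer transcripts, called 6, 3 and 4 (1810, 367 and 494 of 17133). In N2A an FDR of 0.05 called 6 for LR and 2 in neurites (5036 and 363 of 41615), and limma 7 and 0 (9202 and 139). The replicate block called 1 for LR (1632 of 41615) and at least 10 counts 0 in neurites (194 of 17849). In transgene neurites an FDR of 0.05 called 1 (92 of 29230). The median 3′ UTR density of the members was 4.78 per kb against 4.55 over all genes, and counted without overlaps 2.91 against 3.39, so it went from above to below the all-gene median.

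Blocking by replicate number made Map1b in N2A soma and neurites pass (FDR 0.0050 in each), and blocking by culture made Map2 LR in N2A pass and ended the Map1a LR call in the transgene cells. It changed no other call of a member gene. The culture block takes soma and neurites of a genotype and replicate number as a pair, but in each experiment the labels share only a number. Among member values 139 changed sign where neither fit called the gene. Depth limits Dcx and, in N2A, Map7, and a value at 0 counts allows up to 3 counts.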

Other observations

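Among the listed microtubule genes, Vash1, which encodes an enzyme that removes the last tyrosine of alpha-tubulin, rose in the knockout of both lines, by log2 fold changes of 0.63 and 0.76 in CAD soma and neurites and 0.50 and 0.66 in N2A (FDR at or under 0.0051, edgeR). Fignl1 rose by 1.12 and 0.99 in CAD and by 1.18 and 1.07 in N2A. Ttbk1, the tau-tubulin kinase, had an LR of -0.92 in CAD and -0.87 in N2A. Apc, a plus-end tracking protein whose RNA is known from cell protrusions, had an LR of 2.87 in CAD and 1.94 in the transgene cells but -0.06 in N2A (FDR 0.73). These genes were picked after their values were seen.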
